A study of Mus musculus with 2 samples.

Results

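The genes described here serve the inhibitory transmitter gamma-aminobutyric acid (GABA): its receptors, its synthesis, its packaging and uptake, its breakdown, and the scaffold that holds its receptors at synapses. They were chosen by name as the rows of both count matrices whose symbol is on a list of 26 genes, and all 26 were found among the 32285 genes counted. They comprise 15 subunits of the GABA-A receptor family, 2 subunits of the GABA-B receptor, the 2 glutamate decarboxylases Gad1 and Gad2, the vesicular transporter Slc32a1, the membrane transporters Slc6a11 and Slc6a13, the breakdown enzyme Abat, and the scaffold or trafficking genes Gphn, Nlgn2 and Gabarap.

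GABA is made from glutamate by glutamate decarboxylase, loaded into vesicles by Slc32a1, and cleared by transporters of the Slc6 family that sit on neurons, glia and barrier cells. GABA-A receptors are chloride channels built of several subunits whose makeup sets their place and kinetics, while GABA-B receptors are pairs of Gabbr1 and Gabbr2 that act through G proteins. In the subventricular zone (SVZ), a germinal layer along the lateral ventricle that supplies olfactory interneurons and glia after birth, GABA made by neuroblasts is known to act on the neighbouring astroglia and progenitors.

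The study asked how the SVZ differs after intestinal injury early in life. At postnatal day 5 mice entered either the control arm or MIP (modeled intestinal perforation), and 48 h later their SVZ was dissected, snap frozen and used for single-nucleus RNA sequencing. The control group, titled healthy, and the MIP group each have 1 library at postnatal day 7, so every difference below is between 2 libraries, has no replicate check and was not tested. The sources used here do not give the strain, the genotype, how MIP was done, or whether animals were pooled.

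Unique molecular identifiers (UMIs), each standing for a captured RNA molecule, came to 146730970 for control and 100823376 for MIP. Filtering kept 14579 control nuclei and 10940 from MIP, with medians of 5647 and 6030 UMIs. The libraries differed in sex as well as treatment: per 1000000 UMIs (CPM), Xist stood at 1749 and 1.41 and the sum of Y-linked Ddx3y, Eif2s3y, Kdm5d and Uty at 0.314 and 473, in control and MIP, so MIP and male sex cannot be told apart. The share of low-depth nuclei that stayed unnamed was 24% of control against 6.52% of MIP nuclei, and 115 barcodes occurred in both libraries. Within the classes compared, MIP nuclei were shallower in all 9.

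Nuclei were clustered without the 26 genes and without 43 further pathway genes, so that the genes' levels did not shape the clusters. Clusters were then named by resemblance to marker genes, and 9 classes held 100 nuclei or more per library: neuroblasts, cycling progenitors, spiny projection neurons of the striatum, Lhx6-type interneurons, cortical excitatory neurons, astroglia, oligodendrocyte precursors, differentiating oligodendrocytes and microglia. Striatal-like and cortical-like neurons were thus in the tissue taken, beside the cells of the germinal layer. The cortical name is least secure for cluster 12, which made up 57.5% of that class in control and 68.5% in MIP. Its 13 cortical markers summed to 1114 and 1132 CPM, below its 20 spiny projection neuron markers (1658 and 1331). The same cortical markers summed to 1474 and 1657 CPM in astroglia and to 4475 and 3944 in cluster 5 of the cortical class. The Lhx6-type name is also not exclusive. Its cluster 10 made up 50.71% of that class in control and 66.35% in MIP. There 10 markers of Adarb2-type interneurons summed to 5878 and 5695 CPM, above the 11 Lhx6-type markers (5304 and 4663). Among its top 60 genes were 6 Lhx6-type and 3 Adarb2-type markers. A name means resemblance to its markers only. All levels are CPM of the class, intervals are exact 95% intervals for counting error only, and levels are compared for the same gene across classes, never between genes.

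The starts of 3 genes are shown for their class patterns: Gad1 and Gad2 had their highest level in the same class, neuroblasts, and Slc6a11 in astroglia. Each window holds 250 bases before and 50 after the RefSeq start on build GRCm38.p6, on the plus strand, at chr2:70561879-70562178 for Gad1, chr2:22622077-22622376 for Gad2 and chr6:114130991-114131290 for Slc6a11. Capitals mark the letters TATAAA, the core of a TATA box, and the letters GGGCGG, the core of a GC box, each searched on both strands.
Gad1: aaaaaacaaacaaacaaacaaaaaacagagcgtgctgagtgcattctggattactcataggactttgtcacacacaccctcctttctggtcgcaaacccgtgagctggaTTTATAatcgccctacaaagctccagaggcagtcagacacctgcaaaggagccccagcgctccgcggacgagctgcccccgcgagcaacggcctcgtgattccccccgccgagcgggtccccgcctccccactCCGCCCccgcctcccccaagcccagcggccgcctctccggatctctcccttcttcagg
Gad2: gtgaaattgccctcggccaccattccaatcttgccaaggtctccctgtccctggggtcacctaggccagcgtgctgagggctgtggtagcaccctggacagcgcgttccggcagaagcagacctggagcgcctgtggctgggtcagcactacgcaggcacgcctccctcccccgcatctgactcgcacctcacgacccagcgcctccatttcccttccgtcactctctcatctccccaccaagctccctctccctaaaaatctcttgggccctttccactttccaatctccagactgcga
Slc6a11: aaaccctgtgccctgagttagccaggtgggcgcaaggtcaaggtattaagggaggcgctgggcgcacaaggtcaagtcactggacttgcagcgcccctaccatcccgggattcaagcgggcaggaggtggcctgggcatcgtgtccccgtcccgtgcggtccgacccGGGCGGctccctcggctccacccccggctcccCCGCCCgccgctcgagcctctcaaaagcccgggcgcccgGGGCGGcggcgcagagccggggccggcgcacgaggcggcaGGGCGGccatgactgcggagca
The Gad1 window held 1 TATA core and 1 GC box core, the Gad2 window held neither, and the Slc6a11 window held 4 GC box cores. Over all 32851 windows of the same length, 13.6% held the TATA core and 35.7% the GC box core. The 24 genes of the list with a window had 30 windows, as some have more than 1. Of these windows 4 held the TATA core (in Gabra3, Gabrb2 and Gad1) and 14 the GC box core. These matches describe letters in the window and show no binding.

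Calls of a difference between MIP and control were not more frequent among these genes than among all genes. A gene is called higher or lower in a class where the libraries differ at least 1.5-fold and the interval of the ratio excludes equal levels, among genes with at least 20 UMIs over both libraries. Over the 9 classes, 173 gene and class pairs reached 20 UMIs. Of these, 2 were higher in MIP (1.16%) and 16 lower (9.25%), while over all genes and the same classes 3.57% of pairs were higher and 10.6% lower. The share of lower calls was thus near that of all genes, and the higher calls were only 2. The pairs repeat the same genes over the 9 classes, so they are not independent. Scaling by TMM, a trimmed mean over all genes, gave 3 higher and 8 lower, and median-of-ratios scaling 3 and 6, so the excess of lower over higher calls was smaller there. Shares over all genes are not given for these 2 scalings.

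In neuroblasts 0 of 19 measured genes were called higher, where 4.66% of all genes were, and 1 was called lower (Gabrg3), where 7.88% were. Spiny projection neurons had 0 of 21 higher (background 2.24%) and 1 lower, Gabra4 (background 12.2%). Among Lhx6-type interneurons 0 of 20 were higher (2.16%) and 1 was lower, Gabrg1 (11.5%). Cortical excitatory neurons had 0 of 21 higher (2.41%) and 1 lower, Gabrq (14.2%). In these 4 classes the calls did not exceed the background.

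Cycling progenitors had 0 of 19 higher (background 3.43%) and 2 lower, Gabbr2 and Nlgn2 (6.22%). Astroglia had 0 of 19 higher (3.46%) and 2 lower, Gad1 and Gad2 (10.1%). Oligodendrocyte precursors had 0 of 20 higher (2.79%) and 2 lower, Slc32a1 and Gabarap (10.4%), and differentiating oligodendrocytes 0 of 17 higher (4.42%) and 2 lower, Gad2 and Slc6a11 (7.22%). Microglia had 2 of 17 higher, Gabra5 and Gabrb2 (8.73%), and 4 lower, Gad1, Gad2, Slc32a1 and Slc6a11 (13.6%). Of the 18 calls, 14 fell in glia and cycling progenitors, which also held 48% of the calls over all genes, and 6 of them in microglia. Without doublet removal none of these 14 was called.

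The median log2 ratio of MIP to control lay above that of all genes in the 3 neuron classes: 0.025 against -0.15 in spiny projection neurons, 0.046 against -0.12 in Lhx6-type interneurons and 0.0044 against -0.17 in cortical excitatory neurons. It lay below in microglia, at -0.38 against -0.11. Astroglia had -0.14 against -0.12, neuroblasts -0.066 against -0.043, and cycling progenitors 0.090 against -0.035. Differentiating oligodendrocytes had -0.144 against -0.069 and oligodendrocyte precursors -0.115 against -0.106. The list differs from all genes in length: in spiny projection neurons 10 of its 21 measured genes were over 100 kb, beside 2687 of 18809 genes. Medians of all genes differed with length, as given below, and the part of length in these gaps was not tested. In the class where its level was highest, 20 of the 26 genes reached 20 UMIs, and of these only Gabra4 was called there. The plot of log2 ratios by class shows this narrow spread in neurons and the wide intervals in microglia.

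**Figure D1:**
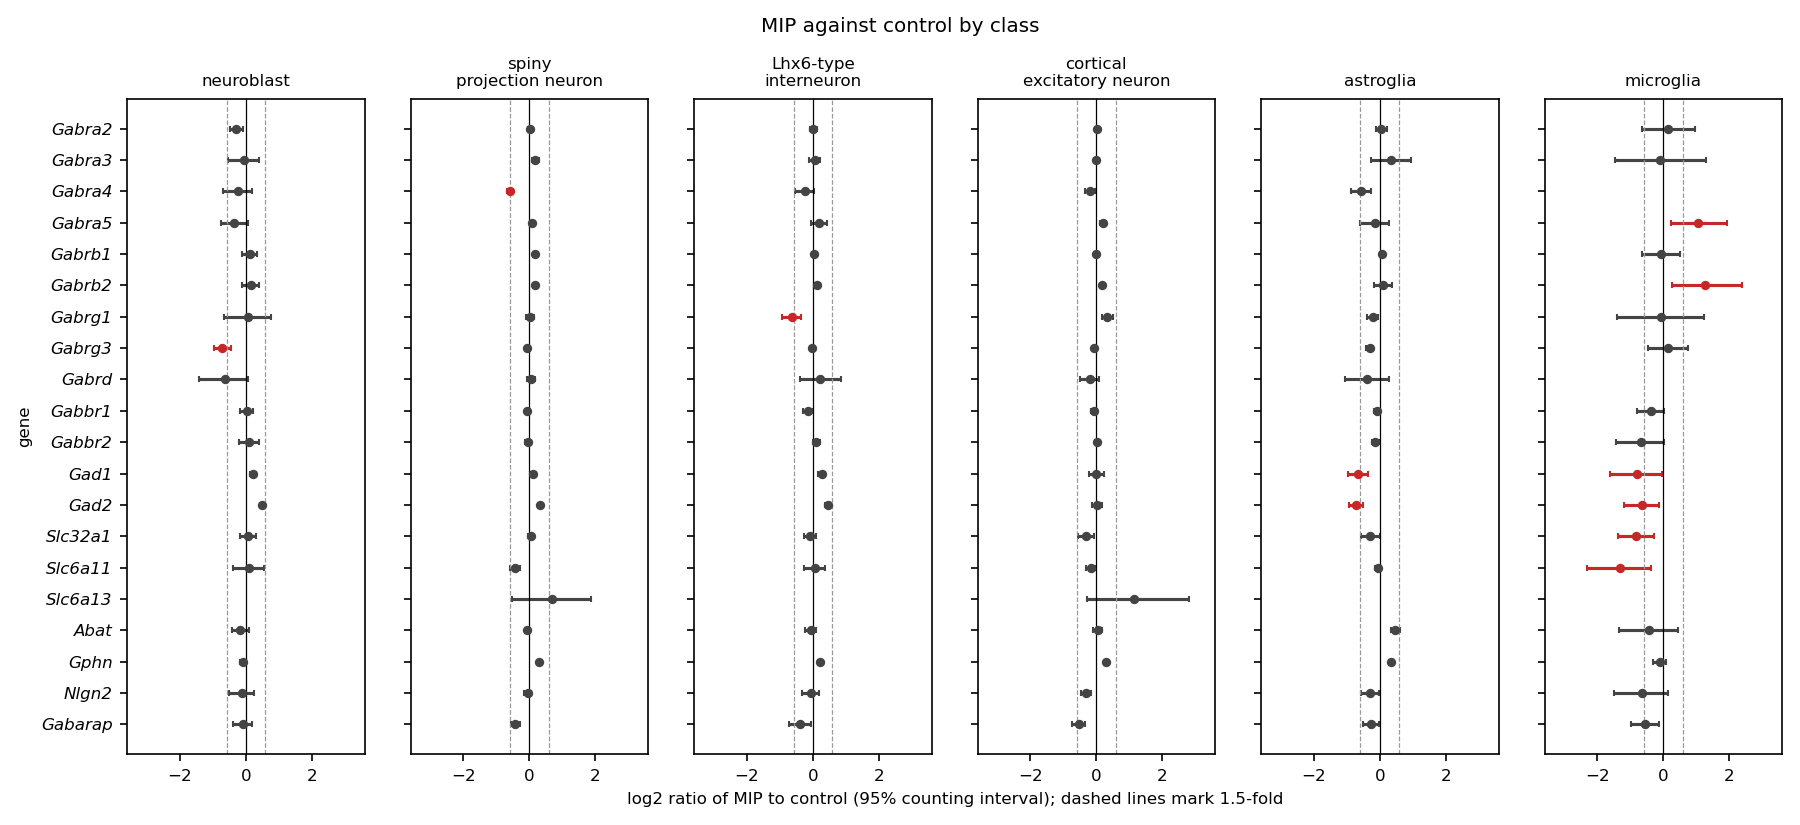
Each panel plots, for 1 class, the log2 ratio of MIP to control (x axis) of the genes on the y axis, the 20 with at least 1000 UMIs over both libraries, where the class had 20 UMIs or more. Points are ratios, bars exact 95% counting intervals, dashed lines mark 1.5-fold and red marks the called genes: Gabrg3 in neuroblasts, Gabra4 in spiny projection neurons, Gabrg1 in Lhx6-type interneurons, Gad1 and Gad2 in astroglia and 6 genes in microglia. Gabrq is under 1000 UMIs and not in the plot.

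Gad1 and Gad2, the decarboxylases that make GABA for the cell body and for the terminal, were highest in neuroblasts, ahead of every mature neuron class. In neuroblasts Gad2 was 758 CPM in the control library (95% interval 734 to 782) and 1065 in the MIP library (1020 to 1111), and Gad1 was 501 CPM in the control library (95% interval 482 to 521) and 581 in the MIP library (548 to 616). Both genes stood higher in neuroblasts than in spiny projection neurons in each library, with log2 differences of 2.35 and 2.44 for Gad1 and 1.24 and 1.40 for Gad2.

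Gad2 levels in control and MIP were 388 and 529 in Lhx6-type interneurons, 322 and 405 in spiny projection neurons, 279 and 302 in cycling progenitors and 38 and 38.9 in cortical excitatory neurons. In glia Gad2 was at 96.8 and 59.2 in astroglia, 63.9 and 49.8 in oligodendrocyte precursors, 67.5 and 33 in differentiating oligodendrocytes and 84.9 and 53.9 in microglia. Cortical excitatory neurons, which do not use GABA as their transmitter, had the lowest level of the gene in the control library.

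Gad1 was also next highest in Lhx6-type interneurons, with 273 and 329.6 in Lhx6-type interneurons, 118 and 156 in cycling progenitors, 98.6 and 107 in spiny projection neurons and 17.4 and 17.4 in cortical excitatory neurons. Glial levels of Gad1 were 46.1 and 29.1 in astroglia, 65.6 and 82.8 in oligodendrocyte precursors, 33.1 and 42 in differentiating oligodendrocytes and 39.9 and 22.8 in microglia. Lhx6-type interneurons stood above spiny projection neurons for Gad1 in each library, with spiny projection neurons 1.47 and 1.63 lower on the log2 scale. Within the spiny projection neurons Gad1 was lower in the Drd1-marked cluster 13 (79.3 and 78.6) than in the Drd2-marked cluster 4 (113 and 130).

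Slc32a1, which loads GABA into vesicles, had another order. It was 115 and 117 in spiny projection neurons, 108 and 112 in neuroblasts, 89.1 and 83.8 in Lhx6-type interneurons, 49.5 and 51 in cycling progenitors and 17.9 and 14.4 in cortical excitatory neurons. Its glial levels were 85.8 and 48.7 in microglia, 45.6 and 37.2 in astroglia, 47.1 and 29.4 in oligodendrocyte precursors and 37.8 and 27 in differentiating oligodendrocytes. The control level in microglia was close to that in Lhx6-type interneurons, and the level in the unnamed low-depth clusters was above every class, at 216 and 204.

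After each nucleus was thinned to 2000 UMIs, a Gad2 UMI was found in 72.6% and 83% of neuroblasts, 52.1% and 58.6% of Lhx6-type interneurons and 46.7% and 53.6% of spiny projection neurons in control and MIP. In microglia, which should lack the gene, the shares were 17.5% and 8.7%, and in cortical excitatory neurons 6.99% and 5.75%. The neuroblast shares of 58.2% and 62.4% for Gad1 and 7.86% and 4.71% in microglia gave the same picture. For Slc32a1 the shares overlapped more, with 18.1% and 20.4% in neuroblasts and 17.9% and 10.9% in microglia, so at this depth its control microglial share was within 1 percentage point of the neuroblast share. Thinning left out 23 and 187 shallower neuroblasts and 19 and 77 microglia; without it the Gad2 shares were 86.3% and 85.7% and 21.7% and 13.3%, at median depths of 3596 and 2438 UMIs in neuroblasts and 3103 and 2659 in microglia. The part of free RNA and remaining doublets in the low glial values was not tested.

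Gad2 was somewhat higher in the MIP library in neuroblasts and both GABAergic neuron classes, under the 1.5-fold limit. The log2 ratio was 0.49 (0.41 to 0.57) in neuroblasts, 0.45 (0.37 to 0.53) in Lhx6-type interneurons and 0.33 (0.29 to 0.37) in spiny projection neurons. Each of these intervals lay above 0, as did 2 of 19 genes of the list in neuroblasts (14% of all genes above 0 and 14.3% below), 5 of 20 in Lhx6-type interneurons (12.3% and 22.4%) and 7 of 21 in spiny projection neurons (17.1% and 35.1%). Across the alternatives the neuroblast value ran from 0.43 to 0.53, the interneuron value from 0.31 to 0.57 and the spiny projection neuron value from 0.29 to 0.48. Within the last class the ratio was 0.36 (0.30 to 0.42) in cluster 13, 0.44 (0.38 to 0.51) in cluster 4 and 0.074 (-0.001 to 0.15) in cluster 11, which is marked by Drd3 and Isl1. Gad1 was closer to equal, at 0.21 (0.11 to 0.31), 0.27 (0.17 to 0.37) and 0.11 (0.044 to 0.18) in the same 3 classes. Cluster 10, rich in Adarb2-type markers, made up 50.71% of the Lhx6-type class in control and 66.35% in MIP. The part of this shift in the interneuron ratios was not tested.

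In astroglia both genes were called lower in MIP, with 624 and 248 UMIs for Gad2, a log2 ratio of -0.71 (-0.93 to -0.49), and 297 and 122 UMIs for Gad1, at -0.66 (-0.98 to -0.35). Microglia moved the same way, at -0.66 (-1.18 to -0.14) and -0.81 (-1.63 to -0.023), as did Slc32a1 there at -0.82 (-1.36 to -0.29) and in oligodendrocyte precursors at -0.68 (-1.07 to -0.29). Gad2 in differentiating oligodendrocytes was at -1.03 (-1.77 to -0.35) with 100 and 22 UMIs. All 14 neuroblast markers were detected in astroglia and in microglia, with summed levels of 480.5 and 315 CPM in astroglia and 477 and 207 in microglia, lower in MIP as well. Other neuronal markers did not all move this way. Those of Lhx6-type interneurons summed to 1131 and 1134 in astroglia and 1306 and 999 in microglia. Spiny projection neuron markers were at 1059 and 886 in astroglia and 1503 and 1148 in microglia. Cortical excitatory neuron markers were higher in MIP, at 1474 and 1657 in astroglia and 556 and 569 in microglia. Without doublet removal the astroglial Gad2 ratio was 0.018 and no Gad gene was called in astroglia, oligodendrocytes or microglia. The Gad1 call in astroglia and both Gad calls in microglia were also lost under each other scaling, and thinning ended the calls of Gad1 and Gad2 in astroglia, Gad2 in differentiating oligodendrocytes and Gad1 in microglia. The Slc32a1 calls were both lost without doublet removal, and that in oligodendrocyte precursors also with marker-score classes, at resolution 0.5 and under both other scalings. The part of stray neuronal RNA and doublets in these calls was not tested.

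**Figure D2:**
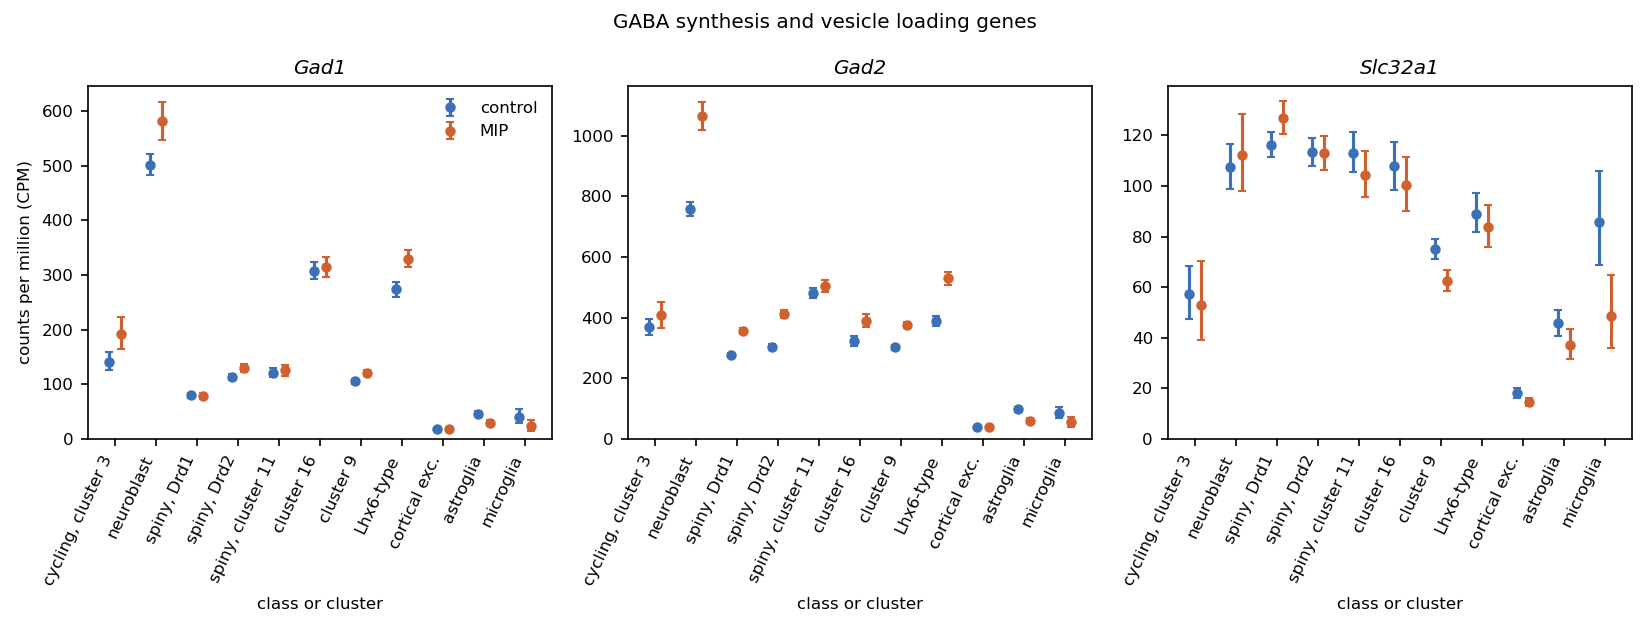
Levels of Gad1, Gad2 and Slc32a1 (y axes, CPM, each from 0) in classes and clusters (x axis), with control in blue, MIP in orange and exact 95% counting intervals. Neuroblasts lead for Gad1 (501 and 581) and Gad2 (758 and 1065), cortical excitatory neurons are lowest for Slc32a1 (17.9 and 14.4), and the MIP point is below the control point for all 3 genes in astroglia and microglia.

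Uptake and breakdown lay mainly in glia, meninges and spiny projection neurons. Slc6a11, the glial plasma membrane GABA transporter, was 509 CPM in the control library (95% interval 492 to 527) and 489.9 in the MIP library (469 to 512) in astroglia. Elsewhere it was 90.6 and 96.4 in cycling progenitors, 51.3 and 45.5 in cortical excitatory neurons, 33.6 and 34.8 in Lhx6-type interneurons, 33.2 and 29.4 in oligodendrocyte precursors, 27.1 and 28.6 in neuroblasts and 23.6 and 17.4 in spiny projection neurons. The remaining glia had 20.2 and 7.5 in differentiating oligodendrocytes and 35.9 and 14.5 in microglia. The astroglial level stood 5.62 and 5.08 times above the next class in control and MIP, and its log2 ratio of MIP to control was -0.056 (-0.14 to 0.025).

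In cycling progenitors Slc6a11 was higher in cluster 3, at 122 and 126, while cluster 0, which carries oligodendrocyte precursor genes, had 17.9 and 20.1. Cluster 3 also held Gad2 at 369.5 and 408 against 67.1 and 31.7 in cluster 0. The cycling class is thus a mixture, with summed levels of the 12 oligodendrocyte precursor markers of 829 and 1045 CPM in cluster 3 and 11302 and 11500 in cluster 0. The transporter was called lower in MIP in differentiating oligodendrocytes, on 30 and 5 UMIs, and in microglia, on 36 and 14 UMIs, with log2 ratios of -1.43 (-3.15 to -0.051) and -1.31 (-2.31 to -0.38). Both calls were lost without doublet removal and after thinning, and the first also under both other scalings. The 14 astroglial markers, summed, were lower in MIP too, at 228 and 121.5 CPM in differentiating oligodendrocytes (1 and 4 of them at 0) and 490.2 and 282 in microglia (1 at 0 in each), and their part in these ratios was not tested.

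Slc6a13, a GABA and taurine transporter of barrier tissues, was almost confined to 1 cluster. Cluster 23, fibroblast-like nuclei of the meninges with 35 control and 72 MIP nuclei, held 335 and 668 of the 401 and 743 UMIs of the gene, at 1141 and 1836 CPM. The other meningeal cluster, 25, held 0 and 1 UMIs, and each of the 9 classes was at or under 3 CPM. Over all nuclei the gene was called higher in MIP, at 1.35 (1.17 to 1.53), where 2.2% of all genes were, and these fibroblast-like nuclei made up 56 control and 110 MIP nuclei. Within cluster 23 the log2 ratio was 0.69 (0.49 to 0.88). The part of the number of meningeal nuclei in the value over all nuclei was not tested.

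**Figure D3:**
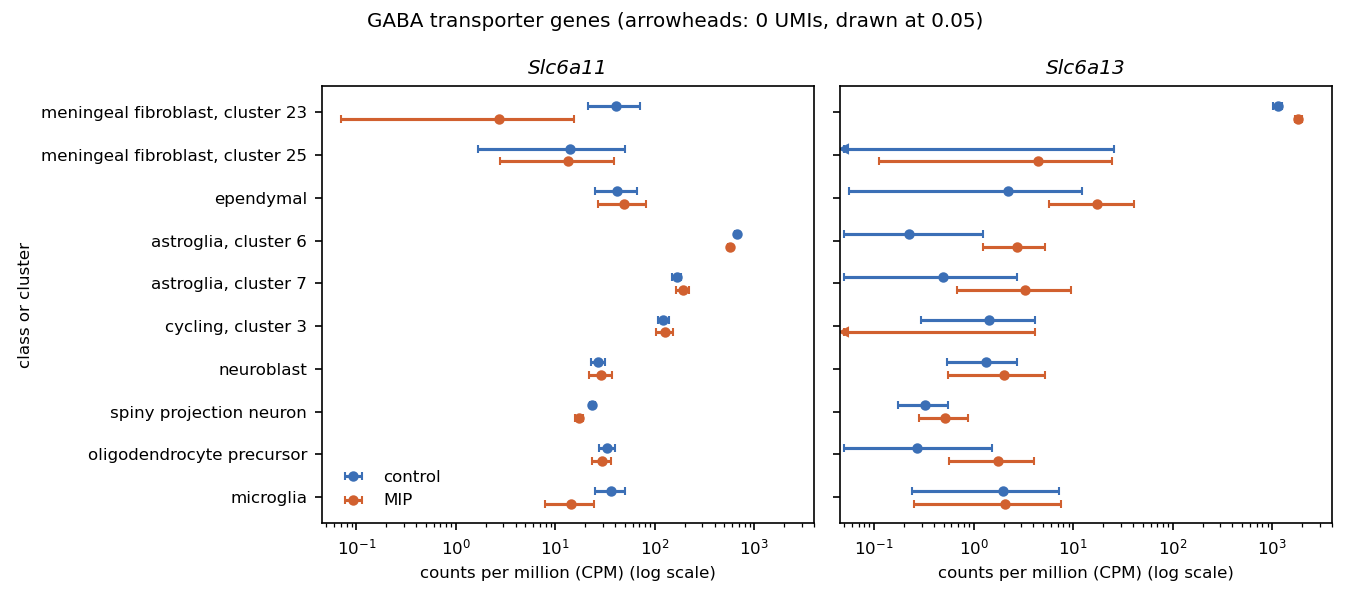
Levels of Slc6a11 and Slc6a13 (x axes, CPM on a log scale) in clusters and classes (y axis), with control in blue, MIP in orange, exact 95% counting intervals, and arrowheads where a library had 0 UMIs; interval ends below 0.05 are drawn at 0.05. Slc6a11 is highest in astroglial cluster 6 (666 and 573) and Slc6a13 in meningeal cluster 23 (1141 and 1836).

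Abat, the mitochondrial transaminase that starts GABA breakdown, was highest in spiny projection neurons and astroglia. Its levels were 196 and 188 in spiny projection neurons, 150.5 and 208 in astroglia, 113 and 108 in Lhx6-type interneurons, 109 and 112 in differentiating oligodendrocytes and 93.4 and 83.3 in neuroblasts. Other classes had 47.1 and 55.1 in cycling progenitors, 50.3 and 52.6 in oligodendrocyte precursors, 40.2 and 41.2 in cortical excitatory neurons and 27.9 and 20.7 in microglia. In MIP astroglia the gene passed the spiny projection neurons, with a log2 ratio of 0.47 (0.33 to 0.60) that stayed under the 1.5-fold limit, with a ratio in cluster 6 of 0.51 (0.36 to 0.66), while cluster 7 had -0.10 (-0.45 to 0.24).

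**Figure D4:**
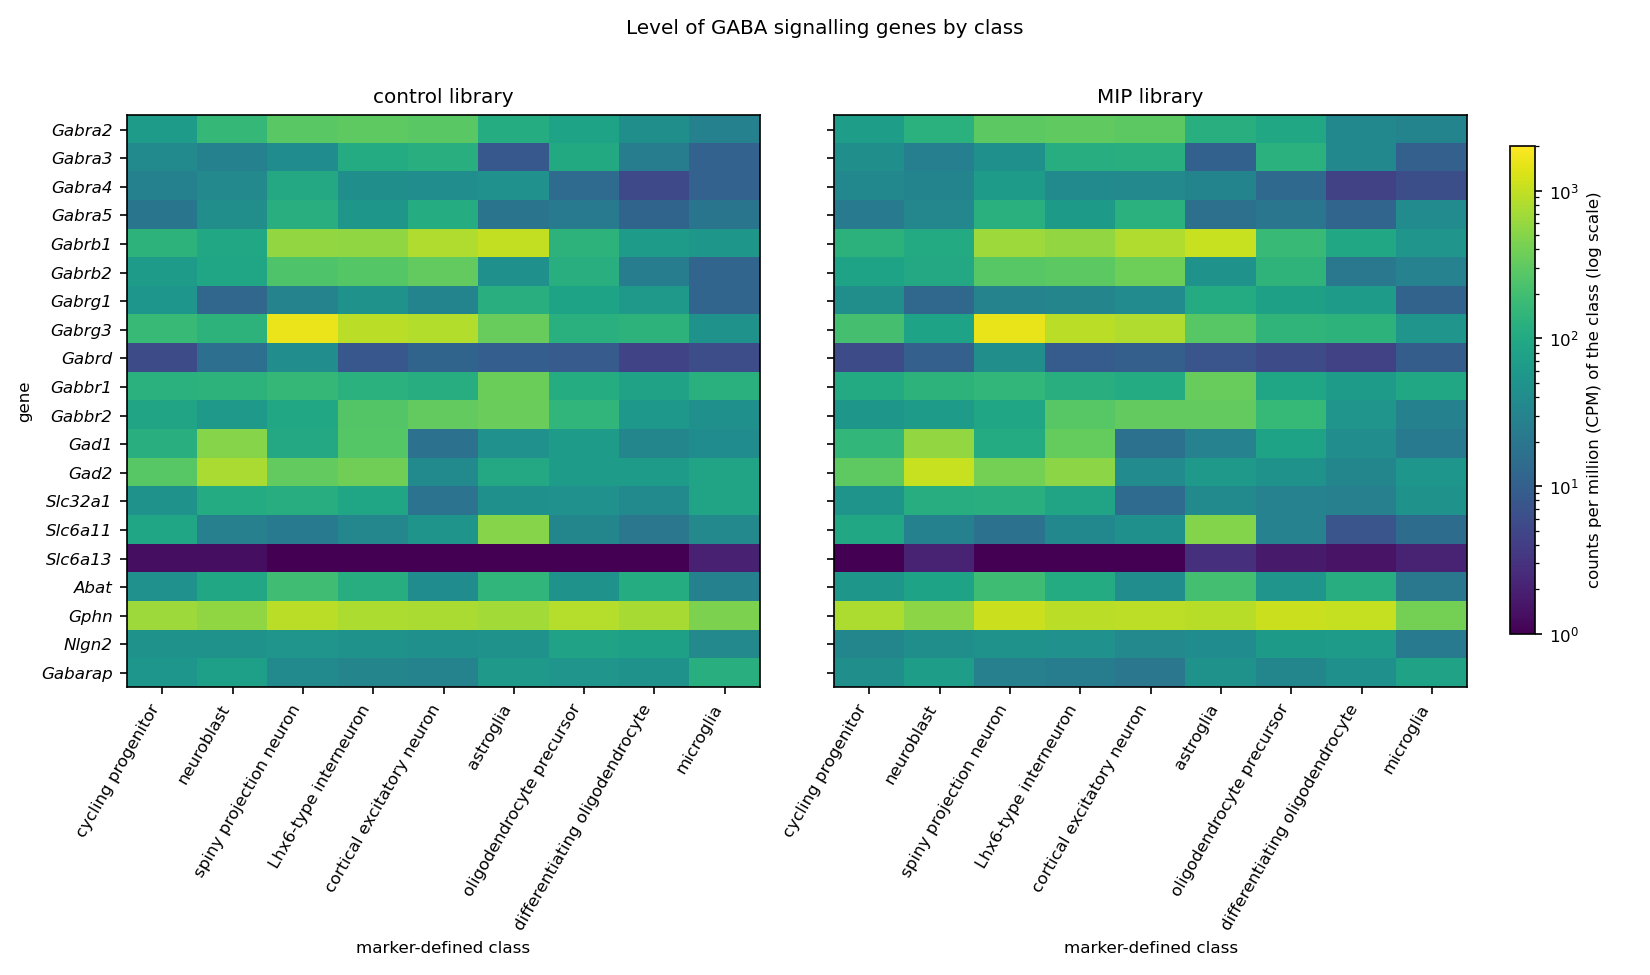
Colour gives the level of 20 genes with at least 1000 UMIs over both libraries (rows) in the 9 classes (columns) of the control and the MIP library, in CPM on a log scale, with levels under 1 drawn as 1. In both panels Gad1 and Gad2 have their highest level in neuroblasts, Slc6a11 and Gabrb1 theirs in astroglia and Gabrg3 its in spiny projection neurons, while Slc6a13 is under 3 in all 9 classes.

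The GABA-A receptor subunits fell into neuronal, astroglial and precursor patterns. Among alpha subunits, which form the binding site for GABA together with beta subunits, Gabra2 was similar across mature neurons, at 308 and 312 in Lhx6-type interneurons, 289.9 and 291 in spiny projection neurons and 288 and 293 in cortical excitatory neurons. It was lower in neuroblasts, 158 and 129.8, and astroglia, 112 and 116, and lowest in microglia, 27.9 and 31.1. Its log2 ratio of MIP to control was within 0.03 of 0 in the 3 neuron classes, but the clusters of cortical excitatory neurons differed. Gabra2 was there at 409 and 388 in cluster 12, 65.2 and 48 in cluster 5 and 183 and 107 in cluster 18, log2 ratios of -0.077 (-0.14 to -0.018), -0.44 (-0.74 to -0.15) and -0.78 (-0.99 to -0.57). Cluster 12 made up 57.5% of the class in control and 68.5% in MIP, cluster 5 made up 26.01% and 16.5%, and cluster 18 16.5% and 15.1%. Within cluster 18 Gabra2 was called lower (background 9.58%), while Gabra3, Gad1 and Gad2 were called higher (background 5.36%), at log2 ratios of 0.70 (0.47 to 0.94), 0.78 (0.23 to 1.35) and 0.84 (0.39 to 1.29), of 19 genes measured.

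Gabra3, an X-linked alpha subunit known from developing brain, was shared by 118 and 119 in cortical excitatory neurons, 109 and 113 in Lhx6-type interneurons and 101 and 128 in oligodendrocyte precursors. Spiny projection neurons as a class had 40.1 and 45.5, but the Drd2-marked cluster 4 had 59.8 and 57.5 against 16.2 and 18.5 in the Drd1-marked cluster 13, a log2 difference of -1.88 and -1.64 in the 2 libraries. Astroglia were near the bottom, at 8.22 and 10.5. Of 10 genes of the list whose interval separated these clusters in both libraries, Gabra3 had the largest difference, and 5 were higher and 5 lower in cluster 13. The share of all genes that separates the same clusters was not computed, so the count shows nothing particular to the list.

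Gabra4, an alpha subunit of extrasynaptic receptors in striatum and thalamus, was highest in spiny projection neurons. There it was 98.4 CPM in the control library (95% interval 95.3 to 102) and 65 in the MIP library (62 to 68.1), a log2 ratio of -0.60 (-0.68 to -0.52). All 3 clusters of the class had a lower level in MIP: 114 and 73.9 in cluster 13, 93.5 and 62.6 in cluster 4 and 66.8 and 48.7 in cluster 11. Other classes had 46.1 and 31.3 in astroglia, 44.1 and 37.1 in Lhx6-type interneurons, 41.2 and 36.2 in cortical excitatory neurons, 36.2 and 30.6 in neuroblasts and 28.4 and 34.8 in cycling progenitors. Levels were smallest in oligodendrocyte precursors, differentiating oligodendrocytes and microglia, at 14.4 and 13.3 in oligodendrocyte precursors, 5.4 and 4.5 in differentiating oligodendrocytes and 11 and 6.22 in microglia. The fold sits at the edge of the limit: the call ended under TMM (-0.46) or median-of-ratios scaling (-0.45), with marker-score classes (-0.45), after thinning and without doublet removal (both -0.57), while the ratio stayed below 0 in every alternative (-0.61 to -0.45). This gene overlaps Gabrb1 at its start on the opposite strand, and since the strand setting of the counting is not given, reads in the overlap cannot be told apart, as holds for Gabra5, Gad1, Slc32a1 and Gphn, which other genes overlap.

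Gabra5, an alpha subunit of tonic inhibition, was 111 and 128 in cortical excitatory neurons, 116 and 124 in spiny projection neurons, 56 and 63.6 in Lhx6-type interneurons and 42.9 and 33.7 in neuroblasts. It was low in the remaining classes, at 22.6 and 19.6 in oligodendrocyte precursors, 19.1 and 22.7 in cycling progenitors, 18.5 and 16.7 in astroglia and 11.5 and 12 in differentiating oligodendrocytes. In microglia the level was 19 and 39.4 on 19 and 38 UMIs and was called higher in MIP, at 1.05 (0.22 to 1.93). The call was lost without doublet removal (0.26), with marker-score classes (0.45) and after thinning. Delta subunits join the same kind of tonic receptors, and Gabrd was highest in spiny projection neurons, 41.9 and 43.4, and next highest in neuroblasts, 16 and 10.2.

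Gabrd in the other classes was 11.5 and 9.98 in cortical excitatory neurons, 9.62 and 7.4 in astroglia, 8.98 and 5.61 in oligodendrocyte precursors, 7.78 and 9.12 in Lhx6-type interneurons, 5.68 and 5.67 in cycling progenitors, 5.99 and 9.33 in microglia and 4.72 and 4.5 in differentiating oligodendrocytes. It did not differ between libraries in spiny projection neurons beyond counting error, at 0.049 (-0.06 to 0.16). Drd1-marked cluster 13 stood above Drd2-marked cluster 4, with 50.4 and 50.8 against 36.5 and 37.8.

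Beta subunits are the obligatory partners of most GABA-A receptors. Gabrb1 was highest in astroglia, 1005 CPM in the control library (95% interval 981 to 1030) and 1055 in the MIP library (1024 to 1087). Neurons followed with 815 and 813 in cortical excitatory neurons, 578 and 648 in spiny projection neurons and 562 and 579 in Lhx6-type interneurons, then 136 and 170.4 in oligodendrocyte precursors, 138 and 134 in cycling progenitors and 96 and 104 in neuroblasts, and microglia had 55.9 and 52.9. Gabrb2 had a neuronal order instead, with 324 and 369 in cortical excitatory neurons, 272 and 297 in Lhx6-type interneurons and 249 and 279 in spiny projection neurons.

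Outside neurons Gabrb2 was 119 and 139.9 in oligodendrocyte precursors, 89.8 and 99.1 in neuroblasts, 67.2 and 82.6 in cycling progenitors, 45.1 and 48.5 in astroglia and 25 and 21 in differentiating oligodendrocytes. Its log2 ratio lay above 0 in 8 of 9 classes. The gene is over 100 kb, and of all genes over 100 kb 47.4% (cycling progenitors) to 58.1% (astroglia) lay below 0. Gabrb2 had 5 intervals above 0, while 12.9% of all pairs had one. It was called higher only in microglia, where it rested on 12 and 28 UMIs. That microglial ratio, 1.28 (0.25 to 2.39), reversed to -0.055 without doublet removal and to -0.27 with classes from marker scores, and the call was lost after thinning.

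The gamma subunits link receptors to the synapse and to benzodiazepine binding. Gabrg3 was highest in spiny projection neurons, 1608 and 1532, followed by 918 and 903 in Lhx6-type interneurons, 845 and 803 in cortical excitatory neurons and 341 and 275 in astroglia. Its lower levels were 175 and 215 in cycling progenitors, 138 and 135 in differentiating oligodendrocytes, 135 and 82.3 in neuroblasts, 126 and 146 in oligodendrocyte precursors and 47.9 and 52.9 in microglia. In neuroblasts it was called lower in MIP on 708 and 161 UMIs, at -0.71 (-0.97 to -0.46). The call was lost with classes from marker scores (-0.30) and after thinning (-0.47). The same gene in cortical excitatory neurons was near equal, -0.073 (-0.11 to -0.041), but cluster 5 of that class had 721 and 398, a log2 ratio of -0.86 (-0.96 to -0.76).

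Gabrg1, a gamma subunit known from glia and immature neurons, was highest in astroglia. The levels were 122 and 106 in astroglia, 82.4 and 76.1 in oligodendrocyte precursors, 60.7 and 66 in differentiating oligodendrocytes and 54.1 and 42.9 in cycling progenitors. Neuron classes had 49.5 and 31.7 in Lhx6-type interneurons, 31.1 and 39.2 in cortical excitatory neurons and 29.8 and 30.3 in spiny projection neurons, with 12.2 and 12.8 in neuroblasts and 12 and 11.4 in microglia. Neuroblasts were thus at the level of microglia for this gene, while the unnamed neuron cluster 9, marked by Prlr, had 134 and 109. In Lhx6-type interneurons Gabrg1 was called lower in MIP on 293 and 153 UMIs, at -0.64 (-0.93 to -0.36). The levels by cluster were 45.8 and 34.4 in cluster 10, 108 and 62.7 in cluster 17 and 22.4 and 8.09 in cluster 24. The call was lost at resolution 0.5, with marker-score classes and under both other scalings, where the ratio lay between -0.56 and -0.31, and over all alternatives it ran from -0.83 to -0.31.

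The remaining subunits were at the limit of detection. Gabrq, an X-linked theta subunit, had 282 and 132 UMIs over all nuclei and was called lower in MIP there, where 17.2% of all genes were, at -0.63 (-0.94 to -0.33). Its class levels were 6.8 and 3.51 in oligodendrocyte precursors, 2.67 and 2.43 in cycling progenitors, 2.15 and 1.24 in cortical excitatory neurons, 1.69 and 2.28 in Lhx6-type interneurons and 0.956 and 0.895 in spiny projection neurons. The others were 0.465 and 0.239 in astroglia, 0.381 and 0 in neuroblasts, 0 and 1.5 in differentiating oligodendrocytes and 0 and 1.04 in microglia. The call in cortical excitatory neurons rested on 37 and 24 UMIs and an interval that ended at -0.013, and it was lost with marker-score classes, at resolution 0.5, under both other scalings and after thinning. An X-linked gene is also compared here between the sexes, and sex and MIP cannot be told apart.

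Gabre had 47 and 47 UMIs over all nuclei, Gabrr1 51 and 19, Gabrr2 40 and 16, Gabrp 12 and 2 and Gabra6 12 and 2, in control and MIP. None of these 5 reached 20 UMIs in any compared class, and their highest class level was 2.70 CPM. Gabrr1, a rho subunit best known from retina, was called lower over all nuclei, at -0.96 (-1.81 to -0.18). Gabra6 is known from cerebellar granule cells, a region outside this dissection.

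GABA-B receptors need Gabbr1, which binds GABA, and Gabbr2, which couples to the G protein. Both were highest in astroglia, at 360.5 and 340.4 for Gabbr1 and 355 and 324 for Gabbr2. Elsewhere Gabbr1 was 159.9 and 153 in spiny projection neurons, 136 and 138 in neuroblasts, 129 and 116 in Lhx6-type interneurons and 128 and 104 in cycling progenitors. Its other levels were 124 and 95.3 in microglia, 113 and 107 in cortical excitatory neurons, 112 and 91.2 in oligodendrocyte precursors and 81 and 66 in differentiating oligodendrocytes, so the astroglial level stood 2.25 and 2.22 times above the next class. Gabbr2 was 319.9 and 324 in cortical excitatory neurons, 259 and 279 in Lhx6-type interneurons, 151 and 163 in oligodendrocyte precursors and 92.5 and 88.9 in spiny projection neurons. In other classes Gabbr2 was 84.2 and 55.1 in cycling progenitors, 61.2 and 64.9 in neuroblasts, 58 and 52.5 in differentiating oligodendrocytes and 44.9 and 28 in microglia.

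Gabbr2 was called lower in MIP in cycling progenitors on 252 and 68 UMIs, at -0.61 (-1.02 to -0.22). In cluster 3 alone the counts were 155 and 22 and the ratio -1.58 (-2.29 to -0.93), while cluster 0 had 0.29 (-0.25 to 0.81). The call was lost without doublet removal (-0.24), with marker-score classes (-0.42), at resolution 2 (-0.55) and under median-of-ratios scaling (-0.58). Nlgn2 in the same class was at -0.61 (-1.15 to -0.098) on 148 and 40 UMIs, with -0.25 (-0.88 to 0.35) in cluster 3 and -1.49 (-2.77 to -0.42) in cluster 0. That call was lost without doublet removal, with marker-score classes, at resolution 0.5 and 2 and under median-of-ratios scaling.

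The astroglial class held 2 clusters with different levels of these genes. Cluster 6, marked by Aldh1l1 and Fgfr3, made up 63.4% of control and 74.1% of MIP astroglia, and cluster 7, marked by Veph1 and Hgf, the rest. Gabbr2 was at 502 and 406 in cluster 6 and 33.7 and 29.6 in cluster 7, a log2 difference of 3.90 and 3.78. The cluster 7 level was near that of microglia, 44.9 and 28.

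Slc6a11 was at 666 and 573 in cluster 6 and 165 and 191 in cluster 7, and Gabbr1 at 418 and 386 in cluster 6 and 233 and 177 in cluster 7. Gabrb1 went the other way, with 811 and 894 in cluster 6 and 1430 and 1633 in cluster 7. In both libraries 7 of the 26 genes were higher in cluster 6 and 3 lower, judged by intervals that exclude equal levels. The share of all genes that separates these 2 clusters was not computed, so the count shows nothing particular to this list. MIP against control within cluster 7 had 3 genes called lower, Gabra4 at -1.31 (-2.05 to -0.63), Gabrg1 at -0.65 (-1.13 to -0.19) and Gad2 at -0.84 (-1.33 to -0.38), beside a background of 6.91% lower and 4.9% higher, and within cluster 6 Gad1 and Gad2, beside 9.46% lower and 3.94% higher. The share of cluster 6 differs between libraries, so a class mean of these genes also moves with that share.

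**Figure D5:**
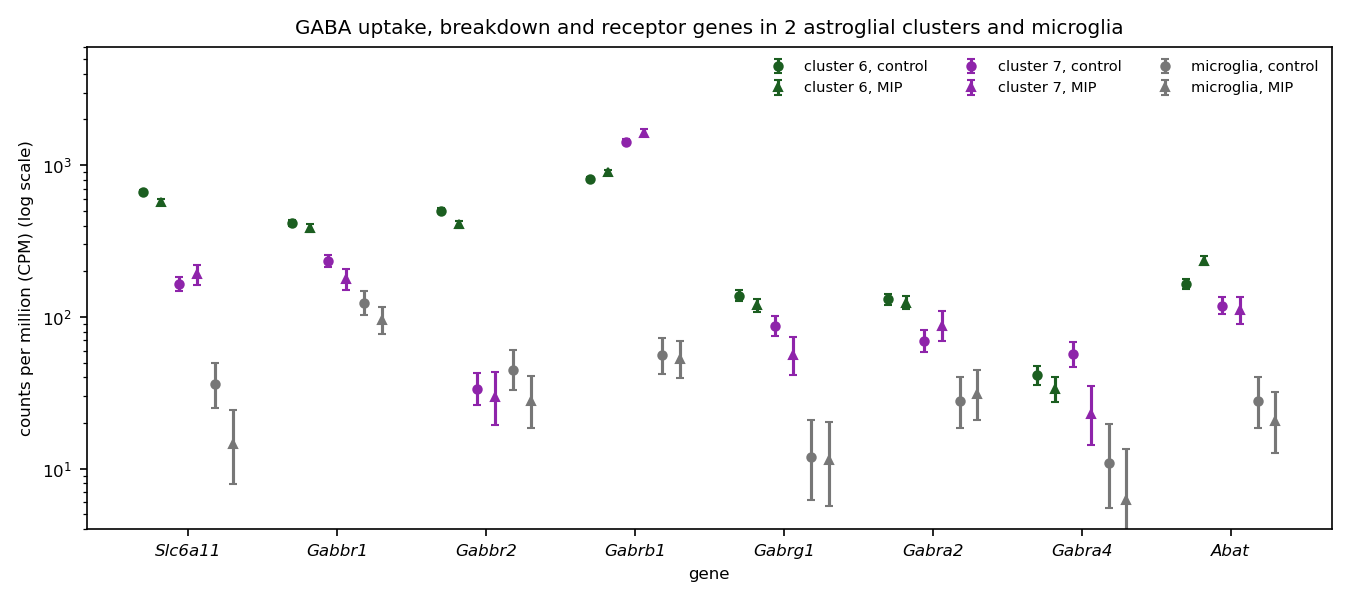
Levels (y axis, CPM on a log scale) of 8 genes (x axis) in astroglial cluster 6 (green), cluster 7 (purple) and microglia (grey), with circles for control, triangles for MIP and exact 95% counting intervals. Gabbr2 is at 502 and 406 in cluster 6 but at 33.7 and 29.6 in cluster 7, near the microglial 44.9 and 28.0, and Gabrb1 is higher in cluster 7.

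Gphn and Nlgn2 were the most even of the measured genes across classes, and Gabarap was highest in microglia. Gphn encodes gephyrin, which anchors receptors at inhibitory synapses and also serves molybdenum cofactor synthesis in all cells. It ranged from 899.8 and 1101 in spiny projection neurons to 440.3 and 407 in microglia. Its ratio of MIP to control had an interval above 0 in 7 of 9 classes, beside 12.9% of all gene and class pairs. It was called in none, with 0.29 (0.27 to 0.31) in spiny projection neurons.

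Nlgn2, the neuroligin of inhibitory synapses, was 80.0 and 63.8 in oligodendrocyte precursors, 74.9 and 66 in differentiating oligodendrocytes, 52 and 50.1 in spiny projection neurons, 50.3 and 40.8 in astroglia and 49.5 and 32.4 in cycling progenitors. The other levels were 49.2 and 47.3 in Lhx6-type interneurons, 48 and 43.9 in neuroblasts, 45.4 and 36.3 in cortical excitatory neurons and 35.9 and 22.8 in microglia. Gabarap, a protein of receptor trafficking and autophagy, was 119 and 80.8 in microglia, 72.8 and 68 in neuroblasts, 59.9 and 50.1 in astroglia, 54.5 and 44.5 in cycling progenitors and 53 and 32.6 in oligodendrocyte precursors. Its remaining levels were 49.9 and 45 in differentiating oligodendrocytes, 36.5 and 27.2 in spiny projection neurons, 31.8 and 24.3 in Lhx6-type interneurons and 29.7 and 20.5 in cortical excitatory neurons. Both genes had a log2 ratio below 0 in 9 of 9 classes. Both are under 20 kb, and of all genes under 20 kb 61.9% (neuroblasts) to 76.2% (cortical excitatory neurons) lay below 0. Intervals lay below 0 in 4 classes for Nlgn2 and in 6 for Gabarap, beside 22% of all pairs. Gabarap was called lower in oligodendrocyte precursors, -0.70 (-1.07 to -0.34), and over all nuclei, -0.69 (-0.76 to -0.62), where 17.2% of all genes were. The first call was lost at resolution 0.5 and without doublet removal, and the second without the low-depth clusters (-0.53).

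Ratios of all genes differed with gene length, and genes under 20 kb had the lowest median in 9 of 9 classes. In spiny projection neurons the median log2 ratio was -0.25 for genes under 20 kb, -0.080 for genes of 20 to 100 kb and -0.040 for longer genes, and in oligodendrocyte precursors -0.25, -0.021 and -0.016. The longest genes did not always stand highest: in 5 of 9 classes their median lay below that of genes of 20 to 100 kb, as in neuroblasts, with -0.14, 0.044 and -0.037. Gabarap (3.81 kb), Slc32a1 (4.98 kb) and Nlgn2 (14.7 kb) are among the short genes, and Gphn (458 kb) and Gabrb2 (209 kb) among the long ones. The part of gene length in their ratios was not tested.

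Other genes of the pathway were taken from 4 lists, and over the 9 classes 9 of 338 measured pairs were called higher and 38 lower, beside 3.57% and 10.6% of all pairs. Of 11 genes of GABA breakdown and glutamate or glutamine supply, 9 were measured in astroglia and 2 were called higher: Aldh5a1, which completes GABA breakdown after Abat, at 37.2 and 57, a log2 ratio of 0.62 (0.35 to 0.88), and the glutamine carrier Slc38a2 at 43 and 64.9, a log2 ratio of 0.60 (0.35 to 0.84). The 2 calls came from different astroglial clusters: Aldh5a1 was called higher in cluster 6 and not in cluster 7, and Slc38a2 in cluster 7 and not in cluster 6. Values under the alternatives are not given for these genes. None of this list was called lower in astroglia, beside 3.46% of all genes higher and 10.1% lower. In microglia 3 of 7 were lower (13.6% of all genes), among them Glul, glutamine synthetase, at 114 and 63.2, where the summed astroglial markers were at 490.2 and 282 CPM.

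Dbi, whose peptide binds GABA-A receptors, belongs to the same list and was called lower in 8 of the 9 classes, all but astroglia. It was 173 and 106 in neuroblasts, 65.2 and 33.1 in spiny projection neurons, 157 and 83.5 in oligodendrocyte precursors and 203 and 75.7 in microglia. The log2 ratio was -0.98 (-1.09 to -0.87) in spiny projection neurons and -1.42 (-1.83 to -1.03) in microglia.

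The list of GABA-B auxiliary subunits and potassium channel effectors holds 8 genes. Kctd8, a GABA-B auxiliary subunit, was called lower in 6 classes, including spiny projection neurons at 379.7 and 222, a log2 ratio of -0.78 (-0.82 to -0.73) and oligodendrocyte precursors at 102 and 41, a log2 ratio of -1.31 (-1.62 to -1.01). Kctd16, another auxiliary subunit, was higher in cortical excitatory neurons, 475 and 735, a log2 ratio of 0.63 (0.59 to 0.67), but among the clusters of that class it was called higher in cluster 18 and not in clusters 5 or 12. Kcnj3, a G protein gated potassium channel, was lower in neuroblasts, 211 and 84.8, a log2 ratio of -1.31 (-1.56 to -1.08). In neuroblasts 1 of 6 measured genes of this list was called lower and 0 higher, beside 7.88% and 4.66% of all genes.

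Of 19 genes of the inhibitory postsynapse and receptor trafficking, all 19 were measured in spiny projection neurons and in cortical excitatory neurons, and none was called there. In neuroblasts 2 of 19 were lower (7.88% of all genes), Mdga1 at 49.7 and 25 and Insyn1 at 24.8 and 13.3. In astroglia Iqsec3 was called lower, at 7.91 and 3.34. Among the 5 genes of chloride balance, which set whether GABA excites or inhibits, none was called in neuroblasts or in any of the 3 neuron classes. Slc12a2, the chloride importer, was higher in MIP in cycling progenitors, 38.8 and 67.2, a log2 ratio of 0.79 (0.37 to 1.21), and lower in microglia, 199 and 43.5, a log2 ratio of -2.19 (-2.71 to -1.70).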

How the data were processed

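UMI counts of nuclei from mouse SVZ were analysed in 1 control and 1 MIP library, grouped by the labels. The deposited values are raw counts per gene and barcode, which the authors produced using Cell Ranger 5.0.1 and mm10, per the submitters' processing notes; the sources used here give neither intron nor strand settings. Positions come from GENCODE release M21, and start windows from RefSeq (GRCm38.p6, 24 of 26 genes matched).

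Barcodes under 500 genes (0 control, 204 MIP) or over 5% mitochondrial UMIs (114, 48) were left out. The automatic threshold of Scrublet (Scanpy 1.11.5) marked 0 and 817 barcodes, so in both libraries the top-scoring 0.8% per 1000 barcodes were removed (2271, 1174). Libraries were clustered jointly on 3000 variable genes, 40 components and 20 neighbours, with Leiden at resolution 1, giving 29 clusters (Python 3.11.15, NumPy 2.4.6, SciPy 1.17.1, pandas 2.3.3, scikit-learn 1.9.0, igraph 0.11.9, leidenalg 0.10.2, matplotlib 3.10.9). A cluster took a name from at least 3 markers among its top 60 genes by fold. UMIs were summed per class and divided by the class total, and the interval of a ratio of 2 Poisson counts was computed exactly. With 1 library per group no test was made. UMIs remove copies of a molecule, and intervals cover counting error only.

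Values in every compared class are given for genes called in any compared class, for the synthesis genes, and for genes whose highest class stands at least 2 times above the next. Other pathway genes are named only where called, at most 5 per class. The clusters compared within a class, the length groups and the gene windows were chosen after values were seen. The genes and lists were chosen with earlier results of these data known. The calculation was checked on simulated Poisson counts, the same model that the interval assumes. There the interval covered the true ratio for 95.9% of 13204 unchanged genes in neuroblasts, 96.1% of 10447 in microglia and 95.5% of 18574 in spiny projection neurons. Of 3-fold changes 95.9%, 96.3% and 97.4% were called, and of unchanged genes 1.9%, 2.51% and 0.996%. The simulation held no spread between nuclei, animals or libraries, so these shares are not false-call rates for the real comparison. Alternatives varied doublet removal, classes, resolution, scaling, depth, the count filter and the call limit. Some genes of this pathway are not reported here.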

Additional observations from a re-analysis of the deposited data

Results flagged for a closer look

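In Gabrg1, Gabrg3, Gabbr2, Gad1, Gad2 and Abat the ratio of MIP to control lay on opposite sides of 0 in 2 classes. Each counting interval was on its own side. The share of all genes with such a pattern was not computed. The difference between classes was not tested, since each class has 1 library per group. Gabrg1 had a log2 ratio of 0.33 in cortical excitatory neurons and -0.64 in Lhx6-type interneurons. Gabrg3 was at 0.30 in cycling progenitors and -0.71 in neuroblasts, but without doublet removal it was at -0.50 in cycling progenitors, the same side as in neuroblasts. Gabbr2 was at 0.11 in Lhx6-type interneurons and -0.61 in cycling progenitors. Abat was at 0.47 in astroglia and, close to equal, at -0.063 (-0.11 to -0.011) in spiny projection neurons.

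For the 2 decarboxylases the classes set side by side here are GABAergic cells and astroglia, but glia did not all go 1 way. In oligodendrocyte precursors Gad1 was at 0.34 (0.066 without doublet removal) and Gad2 at -0.36. Cycling progenitors had Gad1 at 0.39. Gad1 was at 0.27 in Lhx6-type interneurons and -0.66 in astroglia, and Gad2 at 0.49 in neuroblasts and -0.71 in astroglia. The astroglial Gad2 ratio was 0.018 without doublet removal.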

How the results depend on the processing

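The 2 higher and 16 lower pairs became 0 and 9 without doublet removal, with 3 pairs shared, and 0 and 19 with classes from marker scores, with 8 shared. They became 2 and 11 at resolution 0.5 and 2 and 15 at resolution 2, with 11 and 16 shared. TMM scaling gave 3 and 8 (10 shared), median-of-ratios scaling 3 and 6 (8 shared), and thinning to 2000 UMIs 3 and 9 (7 shared). Without the count filter there were 3 and 17, at a 1.5-fold ratio alone 4 and 21, and at 2-fold 2 and 3. Other scalings raised ratios by up to 0.17 on the log2 scale, in cortical excitatory neurons.

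Among the 18 called pairs the ratio changed sign in 3 cases: Gad2 in astroglia without doublet removal (0.018), and Gabrb2 in microglia without doublet removal (-0.055) and with marker scores (-0.27). The cause was not tested. Of all 173 measured pairs 78 changed sign under at least 1 alternative, as did 12 of the 75 whose interval lay off 0, among them Gabrg3 in cycling progenitors without doublet removal (-0.50). Over all nuclei, leaving out the low-depth clusters (chosen after seeing the data) gave 1.34 for Slc6a13, -0.60 for Gabrq and -0.53 for Gabarap, the last under the limit. No paired analysis was possible because each group has 1 library. Microglia (1001700 and 964903 UMIs) and differentiating oligodendrocytes (1482337 and 666427) had the lowest depth of the compared classes, and without replicates no difference can be set against the spread between animals.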

Other observations

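Of the neuron clusters that stayed unnamed, cluster 16, marked by Tshz1 and Foxp2, had Gad1 at 307 and 314 CPM in control and MIP. Cluster 9, marked by Prlr, had 105 and 119.6. Gad2 was closer, at 322 and 389 in cluster 16 and 302 and 375 in cluster 9. Cluster 9 held more Gabrb2, 390.2 and 392 against 98.5 and 131, and more Gabrg1, 134 and 109 against 20.5 and 27.7. In both libraries 6 genes of the list were higher and 8 lower in cluster 16 than in cluster 9 by their intervals. No share over all genes was computed for this contrast, so the count shows nothing particular to the list.

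Cortical excitatory neurons were not uniform. Gabra2 was at 409 and 388 in cluster 12, marked by Tfap2d, and 65.2 and 48 in cluster 5. Gabrb2 ran the other way, at 257 and 308 in cluster 12 and 506 and 661 in cluster 5. Cluster 18 had Gad1 at 15.7 and 27 and Gad2 at 23.3 and 41.7, levels of Gad2 below those of microglia.

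Oligodendrocyte precursors and differentiating oligodendrocytes differed in 9 genes in both libraries, of which 8 were higher in precursors. Gabra3 was at 101 and 128 in precursors and 24.3 and 34.5 in differentiating cells, and Gabrb2 at 119 and 139.9 in oligodendrocyte precursors and 25 and 21 in differentiating oligodendrocytes. Abat alone was higher in differentiating cells, 109 and 112 against 50.3 and 52.6.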
